A study of Homo sapiens with 6 samples.

Results

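Cadherins are cell surface proteins that hold neighbouring cells together through calcium-dependent contacts between their extracellular repeats. The classical type I and type II cadherins pass through the membrane and bind catenins with their cytoplasmic tail, which ties the contact to the actin cytoskeleton. Epithelia typically carry E-cadherin (CDH1) and mesenchymal cells N-cadherin (CDH2), and the replacement of the former by the latter, called a cadherin switch, is a hallmark of epithelial-mesenchymal transition.

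The transcripts of 10 cadherin genes were followed in LINC01133 knockdown cells. The genes were taken from a fixed list of symbols and found among the 60660 genes of the count files by their GENCODE identifiers. The list held 4 type I cadherins (CDH1, CDH2, CDH3 and CDH4) and 5 type II cadherins (CDH5, CDH6, CDH10, CDH11 and CDH24). CDH13 (T-cadherin) completes it and belongs to neither type, since it lacks a transmembrane part and is held in the membrane by a lipid (GPI) anchor. The members were chosen by their counts and their differences between knockdown and control in these same libraries. Their differences are therefore given as a description, with no p-value, and which members passed the cutoffs applied to all genes is likewise a description of the list and not a test of it.

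The cells were of the 12Z line, an established human line of epithelial cells from endometriosis tissue. Control cells received a non-targeting siRNA and knockdown cells the siRNA LINC01133a, each at 10 nM with the same lipid reagent, and polyadenylated RNA was taken 72 h after transfection (3 libraries per group). A single siRNA against the target was sequenced, so an effect of losing LINC01133 and an effect of this siRNA on other transcripts cannot be told apart in these libraries. By quantitative PCR the study also tried another siRNA, LINC01133b, which lowered LINC01133 less. It reported CDH1 lower with each of these siRNAs, but CDH2 lower with LINC01133a only. The labels do not say whether the libraries came from separate cultures, the study calls them biological replicates, and all 6 were sequenced on 1 lane.

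The libraries held 27742562 to 37551194 counts on genes. LINC01133, the targeted long non-coding RNA, stood at 25.4 ± 0.396 normalised counts (CPM, the counts scaled to library size with the TMM method, SD, n = 3) in control and 4.11 ± 0.145 in knockdown cells, 16.2% of control. Of 15155 genes tested with edgeR, 1778 had a fold change over 1.5 with an adjusted p under 0.05 (11.7%), and these are referred to as called. Epithelial genes were expressed unevenly. GRHL2 had no count, and EPCAM had 9 to 26 counts and CLDN4 4 to 18 per library. OCLN, KRT7 and KRT19 averaged 28.9, 110 and 1235 CPM in control cells, and KRT8 and KRT18 3230 and 1778 CPM. The stromal genes COL3A1, COL1A1 and VIM averaged 3877, 2710 and 1633 CPM.

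A siRNA can lower transcripts other than its target when bases 2 to 8 of a strand, its seed, pair with their 3′ UTR, as the seed of a microRNA does. The strands of LINC01133a are therefore shown first, 5′ to 3′, with the seed in capitals.
LINC01133a antisense: uCCAUUCUcagguaacuucaa
LINC01133a sense: gAAGUUACcugagaauggatt

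The antisense strand is the one meant to guide the cut of LINC01133, and its seed pairs with AGAATGG. The seed of the sense strand pairs with GTAACTT. Among the 10 cadherins, the canonical 3′ UTRs of CDH3, CDH6 and CDH11 held the match to the antisense seed, and those of CDH1 and CDH11 the match to the sense seed. Each match is given below as a window of the GRCh38 genome on the strand of the gene, with the 7 matching bases in capitals.
CDH3, chr16:68700001-68700027, plus strand, antisense seed: tctcctttaaAGAATGGccacattgta
CDH6, chr5:31328893-31328919, plus strand, antisense seed: ctgtgttagaAGAATGGggtcgagagt
CDH11, chr16:64946156-64946182, minus strand, antisense seed: tgttttaatgAGAATGGgcgattcatt
CDH11, chr16:64944162-64944188, minus strand, sense seed: acatgacttcGTAACTTaaacctcttc
CDH1, chr16:68834693-68834719, plus strand, sense seed: tcctgagtatGTAACTTgcaatgggca

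Such matches are common. Of 12538 tested genes with an annotated 3′ UTR, 17.1% held the antisense match and 13.6% the sense match, and the shares rise with the length of the 3′ UTR. Among tested genes with a 3′ UTR within 20% of the length of the member's own, the antisense match was held by 16.3% for CDH3, 46.5% for CDH6 and 33.2% for CDH11, and the sense match by 14.3% for CDH1 and 26.3% for CDH11. The 3′ UTRs of CDH2, CDH4, CDH5, CDH10, CDH13 and CDH24 held neither. A match of letters does not show that a strand acts there, and its part in any difference was not tested.

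In the plot of levels by library, N-cadherin stood far above every other cadherin of the 12Z cells in both groups. To compare genes, each CPM value was divided by the length of the gene's exons in kilobases (CPM per kb). On this scale CDH2 averaged 46.1 ± 2.38 in control cells, and the next gene, CDH11 (OB-cadherin, known from osteoblasts and fibroblasts), 8.66 ± 1.22. E-cadherin, the cadherin that names the epithelial state, was among the lowest of the expressed members, at 2.10 ± 0.186 CPM per kb.

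**Figure D1:**
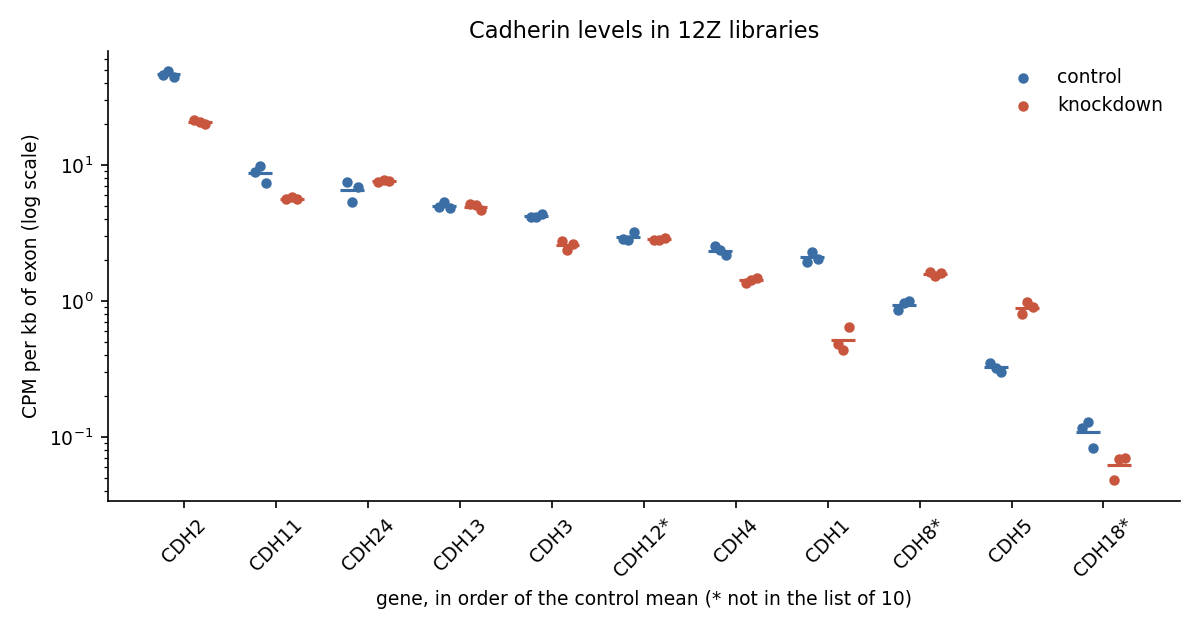
Levels of the 11 type I and II cadherins and CDH13 that were high enough to be tested, in CPM per kb of exon on a log axis, by gene in the order of the control mean. Points are the 3 control and 3 knockdown libraries, lines their means, and an asterisk marks a gene outside the list of 10. CDH2 is highest in all 6 libraries, and CDH1 lies above CDH5 in control and below it in knockdown cells.

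The order of the members in control cells, by mean CPM per kb, was CDH2, CDH11, CDH24 (6.56), CDH13 (5.03), CDH3 (4.19), CDH4 (2.35), CDH1 and CDH5 (0.326). The ranges of CDH11 and CDH24 overlapped between libraries, as did those of CDH4 and CDH1. Within each control library, however, CDH11 stood above CDH24 and CDH4 above CDH1. The lowest library of CDH24 (5.35) lay just above the highest of CDH13 (5.33). In knockdown cells the order was CDH2 (20.6), CDH24 (7.60), CDH11 (5.64), CDH13 (4.94), CDH3 (2.58), CDH4 (1.42), CDH5 (0.895) and CDH1 (0.521). No neighbours in this order overlapped, and CDH5 stood above CDH1 in each knockdown library. The places of CDH11, CDH24, CDH13, CDH3, CDH4 and CDH1 depended on the length used. In control cells CDH1 (2.65) passed CDH4 (2.64) per longest transcript, and CDH3 (10.8) passed CDH24 (10.0) per coding length. Per coding length, CDH2 stood at 65.0 and CDH11 at 31.4 in knockdown cells. With the longest transcript in place of all exons CDH11 stayed ahead of CDH24 in knockdown cells, at 10.9 against 8.02 CPM per kb, whereas CDH2 stayed first and CDH5 above CDH1 under every length tried.

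Of the 10 cadherins, 8 had enough counts to be tested. CDH1, CDH2, CDH3, CDH4 and CDH11 were called lower in knockdown cells, CDH5 was called higher, and CDH13 and CDH24 were not called. Over all genes tested 6.43% were called lower and 5.3% higher. The groups did not overlap for the same 6 members that were called, and for 57.3% of all genes. The same 6 also had an adjusted p under 0.05 at any fold change, as 48.3% of all genes did. The median log2 fold change of the 8 members was -0.66, against 0.0032 over all genes. Since the members were chosen with these differences known, the counts describe the list and are no evidence about it. In bulk RNA, fewer cells expressing a gene and less of its RNA per cell cannot be told apart.

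**Figure D2:**
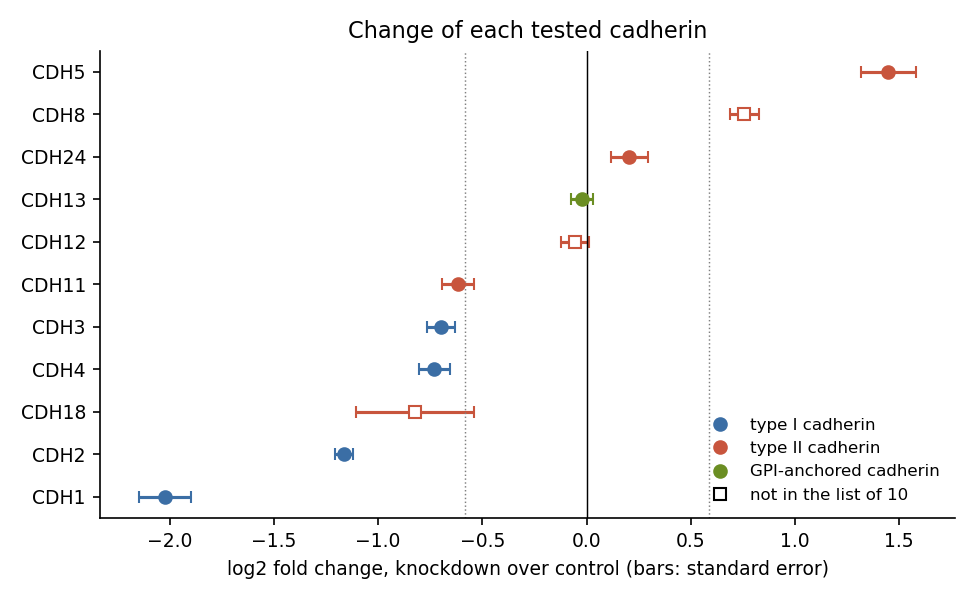
Log2 fold change of each tested cadherin, knockdown over control, with its standard error from edgeR. Colours give the type, open squares are genes outside the list of 10, and dotted lines mark a fold change of 1.5. The 4 type I cadherins lie on the lower side, from -2.02 for CDH1 to -0.70 for CDH3, and CDH5 lies highest at 1.45.

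All 4 type I cadherins were lower after knockdown, and the median of their log2 fold changes was -0.95. CDH1 (chr16:68737292-68835537), the adhesion protein of epithelial adherens junctions, stood at 11.8, 14.0 and 12.5 CPM in the control libraries and at 2.96, 2.64 and 3.89 CPM in the knockdown libraries. The highest knockdown library thus lay far below the lowest control library. Its log2 fold change was -2.02 (SE 0.12), a level 4.03-fold lower, and it rested on 389 to 403 counts per control library and 88 to 113 per knockdown library.

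N-cadherin did not take the place of E-cadherin in the counts. CDH2 (chr18:27932879-28177946) stood at 391, 418 and 378 CPM in control and 182, 177 and 170 CPM in knockdown libraries, again without overlap. Its log2 fold change was -1.16 (SE 0.044), a level 2.24-fold lower. In CPM per kb, the ratio of CDH2 to CDH1 was 22.04 ± 1.26 in control and 40.7 ± 8.61 in knockdown cells, with both genes lower and CDH1 by the larger factor.

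P-cadherin (CDH3, chr16:68636189-68727468), which lies beside CDH1 on the chromosome and is found in basal layers of epithelia, stood at 26.3, 26.2 and 27.9 CPM in control and 17.7, 15.0 and 16.7 CPM in knockdown libraries. R-cadherin (CDH4, chr20:61252261-61940617), first described in the retina, stood at 19.0, 17.7 and 16.3 CPM in control and 10.2, 10.7 and 11.1 CPM in knockdown libraries. Neither gene had overlapping groups, and their differences were smaller than those of CDH1 and CDH2, with log2 fold changes of -0.70 (SE 0.065) for CDH3 and -0.73 (SE 0.074) for CDH4.

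The type II cadherins did not move one way. CDH5 (VE-cadherin, chr16:66366690-66404784), the cadherin of endothelial junctions, stood at 2.11, 1.95 and 1.83 CPM in control and 4.79, 5.88 and 5.47 CPM in knockdown libraries. Every knockdown library lay above every control library, and the log2 fold change was 1.45 (SE 0.13), a level 2.75-fold higher. The gene remained a minor one, with 56 to 72 counts per control and 156 to 196 per knockdown library.

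Other endothelial markers did not rise as a set with CDH5. Of 16 endothelial markers 8 were tested, none was called higher, and KDR, TIE1 and SOX18 were called lower, with log2 fold changes of -0.68, -1.58 and -0.997 (adjusted p = 5.63e-08, 3.26e-07 and 0.00121, edgeR). The median over these 8 markers was -0.26. The summed level of all 16 markers ran from 63.6 to 66.5 CPM in control and from 43.4 to 45.7 CPM in knockdown libraries. Most of this sum was KDR, with means of 47.0 and 29.4 CPM. The defining markers PECAM1, CLDN5, ERG and EMCN had 0 to 3 counts per library, and PLVAP had none. EGFL7, one of the 3 most abundant markers, stood at 8.34 and 9.12 CPM (log2 fold change 0.13, adjusted p = 0.28). VWF, SOX17, ROBO4 and MMRN2 had log2 fold changes of 0.29, 0.12, 0.021 and -0.55 (adjusted p = 0.331, 0.762, 0.954 and 0.0920, edgeR). FLT1, too low to test, had 5, 0 and 0 counts in control and 11, 5 and 6 in knockdown libraries.

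CDH11 (chr16:64943753-65126112) stood at 117, 130 and 97.9 CPM in control and 74.0, 76.4 and 74.4 CPM in knockdown libraries, without overlap. The log2 fold change was -0.62 (SE 0.076), close to the fold cutoff. It was -0.52 without control replicate 2 and -0.55 when libraries were scaled by their size alone, and the gene was then not called.

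CDH24, a further type II cadherin, stood at 28.1, 20.05 and 25.6 CPM in control and 28.1, 28.8 and 28.5 CPM in knockdown libraries. The groups overlapped, and control replicate 2 lay below the other 5 libraries. The log2 fold change was 0.21 (SE 0.090), and 0.079 without that library.

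CDH6 (K-cadherin, known from kidney) and CDH10 were too low to test. CDH6 had 5, 2 and 5 counts in control and 1, 0 and 2 in knockdown libraries. Knockdown cells held 0.235 of the control level over the pooled counts of 12 and 3, with an exact 95% interval of 0.0426 to 0.872 that covers counting error only. CDH10 had no count in any library, where 3 counts over a group correspond to 0.0319 CPM in control and 0.0300 CPM in knockdown cells.

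T-cadherin (CDH13, chr16:82626965-83800640), which can signal but does not bind catenins, stood at 54.1, 58.7 and 53.5 CPM in control and 56.8, 55.6 and 51.1 CPM in knockdown libraries. The groups overlapped, and the log2 fold change was -0.022 (SE 0.051). Its sign turned with the scaling and with single libraries left out.

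The 9 type I and II cadherins outside the list were largely silent. No count was found for CDH7, CDH9, CDH15, CDH19 and CDH20, and 1 count for CDH22. Among the 3 tested, CDH8, a type II cadherin known from the nervous system, rose, with 11.7, 13.1 and 13.5 CPM in control and 22.1, 20.7 and 21.8 CPM in knockdown libraries (log2 fold change 0.76, SE 0.068, adjusted p = 1.27e-06, edgeR). Its groups did not overlap. Among tested genes with a 3′ UTR of similar length, 50.1% held the match to the antisense seed. The 3′ UTR of CDH8 held it too, and its part in the rise was not tested. It is shown here with the match in capitals.
CDH8, chr16:61648364-61648390, minus strand, antisense seed: tgggaactcaAGAATGGgtgcaacaga

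CDH12 did not pass the test (log2 fold change -0.058, adjusted p = 0.50). CDH18, with a mean of 0.713 CPM in control cells, fell by 0.82 on the log2 scale (adjusted p = 0.028), but was not called by DESeq2 or when any of 4 single libraries was left out.

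The sum over the 10 cadherins addresses whether the changes were an exchange or a loss of cadherin RNA. The total stood at 75.7, 78.3 and 72.0 CPM per kb in control and 44.9, 44.3 and 43.3 CPM per kb in knockdown libraries. No library of one group reached the range of the other. The mean was 75.3 ± 3.16 in control and 44.2 ± 0.780 in knockdown cells (SD, n = 3), 58.6% of control. Without dividing by length, the sum was 57.0% of control.

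**Figure D3:**
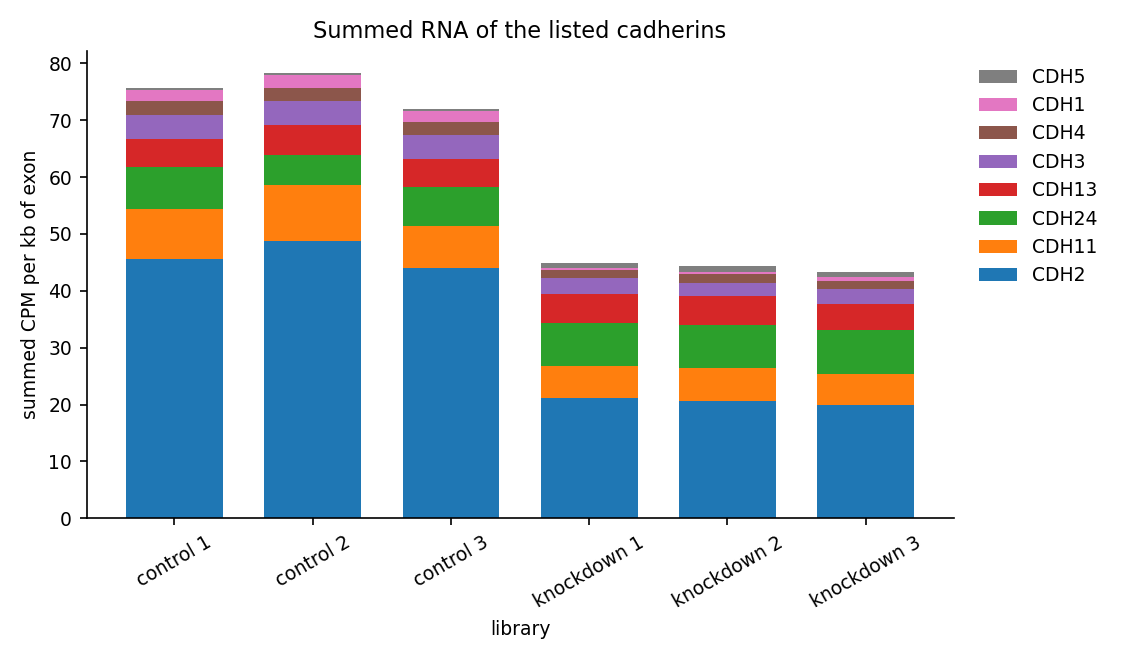
Summed CPM per kb of exon of the listed cadherins in each library, with 1 colour per gene (CDH6 and CDH10 are too low to be seen). Control bars reach 72.0 to 78.3 and knockdown bars 43.3 to 44.9, and the lowest segment, CDH2, accounts for most of the gap.

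Most of the lower total was N-cadherin. The differences of the members with a lower mean summed to -32.8 CPM per kb, of which CDH2 made up 77.9%, CDH11 9.20% and CDH1 4.81%. The 2 members that were higher in mean, CDH5 and CDH24, gained 1.60 CPM per kb together, 4.90% of the loss. The difference was 0.569 CPM per kb for CDH5 and -1.58 for CDH1, so the gain of VE-cadherin was smaller than the loss of E-cadherin on this scale. With the 9 other type I and II cadherins added, CDH8 included, gains came to 6.84% of the loss, and the total of the 19 genes in knockdown cells was 61.3% of control.

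Most of the loss lay in type I. The summed type I level was 54.7 ± 2.49 CPM per kb in control and 25.1 ± 0.686 in knockdown cells (45.8% of control), while the type II sum was 15.6 ± 1.07 and 14.1 ± 0.269 (90.9% of control). The type II sum ran from 14.5 to 16.7 in control and from 13.9 to 14.4 in knockdown libraries, so its groups did not overlap but lay close together. The size of the type II difference depended on the length used, as the sum was 83.8% of control per longest transcript, 76.7% per coding length and 76.8% in CPM. The type I sum was 45.5% to 45.8% of control under all 3 lengths (these comparisons of lengths were added after the data were seen). Without CDH2, the other 9 members summed to 29.2 ± 1.14 in control and 23.6 ± 0.0935 in knockdown cells (80.8% of control). The difference between the types was not tested, since their members were chosen with the values known.

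The make-up of the total shifted accordingly. CDH2 held 61.2% ± 1.03 of the summed CPM per kb in control and 46.6% ± 0.763 in knockdown cells. The shares of CDH24 and CDH13 were 8.75% and 6.67% in control and 17.2% and 11.2% in knockdown cells, though neither gene was called, and the shares rest on a smaller total. CDH11 held 11.5% ± 1.15 and 12.8% ± 0.322, with overlapping libraries. CDH1 went from 2.78% to 1.18% and CDH5 from 0.433% to 2.03%. The ratio of CDH1 to CDH5 in CPM per kb was 5.54 to 7.10 in the control libraries and 0.444 to 0.704 in the knockdown libraries, so that the order of this pair was turned in every library.

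Catenins bind the cytoplasmic tail of classical cadherins. Of 9 such genes 6 were tested, and CTNNB1 (beta-catenin, also the effector of Wnt signalling) was the 1 called. It fell, from 324 ± 4.98 to 199 ± 2.22 CPM (log2 fold change -0.70, SE 0.034, adjusted p = 5.28e-09, edgeR). CTNNA1 (alpha-catenin, the link to actin) had 682 and 604 CPM, and PKP4 82.7 and 101 CPM, below the fold cutoff (log2 fold changes -0.18 and 0.29, adjusted p = 0.000544 and 2.01e-05). Of the genes named after their values were seen, JUP (gamma-catenin) and CTNND1 (p120-catenin, which keeps cadherins at the membrane) did not pass the test, with log2 fold changes of -0.052 and -0.059. ARVCF, a relative of p120-catenin, had one of 0.58 with an adjusted p of 0.00185, just under the fold cutoff. The median over the 6 tested catenins was -0.056.

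The other parts of the junction showed no called gene, where 11.7% of all genes tested were called. With so few genes per list, the absence of calls is no result about the lists. Among 8 tested junction partners of 9, VCL (vinculin, recruited to junctions under tension) had 343 and 405 CPM, LIMA1 (an actin-binding partner of alpha-catenin) 344 and 296 CPM and AFDN (afadin) 294 and 277 CPM in control and knockdown cells. Their log2 fold changes were 0.24, -0.22 and -0.083 (adjusted p = 0.00018, 0.00144 and 0.217, edgeR). At any fold change, 2 junction partners were higher and 3 lower with an adjusted p under 0.05, a limit that 48.3% of all genes passed. Among 13 tested genes of 15 that cut, shed or degrade cadherins, the 3 most abundant were the shedding proteases ADAM9, ADAM10 and ADAM17, with log2 fold changes of -0.13, -0.19 and -0.16 (adjusted p = 0.0101, 0.000995 and 0.00366). FURIN, which removes the propeptide of cadherins and was named after its values were seen, stood at 38.5 and 50.4 CPM (log2 fold change 0.39, adjusted p = 6.16e-06). All values of the list lay inside the fold cutoff, and their median was -0.014. Of these genes, 4 were higher and 3 lower with an adjusted p under 0.05.

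Desmosomal cadherins anchor keratin filaments rather than actin. Of 7 genes 3 were tested and none was called, against 11.7% of all genes tested. DSC3 had 340 and 413 CPM in control and knockdown cells, DSG2 305 and 315 CPM, and DSC2 72.6 and 53.6 CPM. The log2 fold changes were 0.28, 0.046 and -0.44 (adjusted p = 0.000434, 0.372 and 1.34e-05, edgeR).

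Among 34 further genes of the cadherin superfamily 16 were tested, with a median log2 fold change of -0.20. PCDH10 (a protocadherin), CELSR3 and CDHR4 were called higher, with log2 fold changes of 0.63, 0.65 and 0.76 (adjusted p = 2.85e-05, 0.000128 and 0.0369). RET, a receptor kinase with cadherin repeats, and DCHS1, a partner of the FAT cadherins, were called lower (-0.89 and -0.60, adjusted p = 0.0114 and 0.00129). CELSR3 was called under every alternative and the other 4 were not. The 3 most abundant genes, CLSTN1, FAT1 and CELSR2, were not called, with log2 fold changes of -0.18, -0.28 and -0.24. Without control replicate 2 the value was -0.022 for FAT1 and -0.13 for CELSR2.

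Some epithelial, stromal and leukocyte markers were lower in knockdown cells as well, and others were not. Of 16 epithelial markers 9 were tested, and the keratins KRT7, KRT8 and KRT19 fell, with log2 fold changes of -0.59, -0.63 and -0.88 (adjusted p = 2.07e-07, 2.36e-08 and 1.07e-09), the call of KRT7 and KRT8 being lost with scaling by library size alone. The study reported that its follow-up of knockdown cells did not bear out the lower KRT7 and KRT19. KRT18 had a log2 fold change of -0.55, inside the fold cutoff. OCLN and CLDN4 had log2 fold changes of -0.17 and -0.70 (adjusted p = 0.0126 and 0.126, edgeR). EPCAM, ESRP2 and PAX8 had 0.31, 0.31 and 0.033 (adjusted p = 0.463, 0.300 and 0.863). The summed level of the 16 markers was 6200 to 6535 CPM in control and 3974 to 4161 CPM in knockdown libraries. Most of this sum was KRT8, KRT18 and KRT19 (3230, 1778 and 1235 CPM in control cells). All 14 stromal markers were tested, none was called higher, and COL6A3, PDGFRA and S100A4 fell (-0.97, -1.52 and -1.32, adjusted p = 4.13e-05, 2.85e-06 and 6.56e-05). At any fold change, 8 stromal markers were lower and 1 higher with an adjusted p under 0.05, and 5 did not pass. The higher one was ACTA2 (log2 fold change 0.48, adjusted p = 0.00965, edgeR). The summed level of the 14 stromal markers was 9265 to 10132 CPM in control and 9016 to 9156 CPM in knockdown libraries. Of 7 leukocyte markers 2 were tested, CD14 fell by 0.98 (adjusted p = 1.37e-08), PTPRC did not pass the test, and the list summed to 50.2 to 56.6 CPM in control and 26.3 to 28.4 CPM in knockdown libraries. The part of these markers in the cadherin values was not tested.

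Many genes followed CDH1, CDH2 and CDH5 over the 6 libraries. The likeness was Pearson's correlation of log2 CPM, given as a description over libraries that fall into 2 groups. The 3 genes most like CDH1 were DOCK11, ST3GAL5 and NMNAT2 (r of 0.999 each), those most like CDH2 were ATP1B1, MAGT1 and METAP1 (r of 1.000, 0.999 and 0.999), and those most like CDH5 were FAIM, ZFYVE27 and RRM2B (r of 0.999 each). Of 15154 other genes, 1608 had an r over 0.95 with CDH1, 1877 with CDH2 and 1192 with CDH5.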

How the data were processed

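RNA-sequencing counts of 6 libraries of 12Z cells were analysed. The authors aligned the reads with STAR (2.7.6a) to GRCh38.p13 with the GENCODE release 36 annotation, kept uniquely mapping reads and deposited raw counts of read pairs per gene for each library. Of their 2 stranded columns, the reverse-stranded one was used, which held 93.9% to 94.1% of the stranded counts. The labels name an NEB library kit and the study's methods a TruSeq kit.

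Genes were kept by filterByExpr (minimum count 10), scaled by TMM and compared in edgeR (4.0.16, under R 4.3.3) by its quasi-likelihood test without covariates, with p-values adjusted by Benjamini-Hochberg over 15155 genes. A gene was called with a fold change over 1.5 and an adjusted p under 0.05. The standard error was taken from the log2 fold change and its F statistic. On simulated counts, 188 of 195 changed genes were recovered among 15004, with 0 false calls. The planted changes all lay well past the fold cutoff, and all genes shared a common dispersion. Far fewer genes were changed than were called in the data. The simulation therefore does not bear on genes near the cutoff or on the number of false calls here. Exon lengths, positions and 3′ UTRs came from GENCODE release 44.

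The members and gene lists were chosen with earlier results of these data known. Named were the members, the called and the 3 most abundant genes of each list, the 3 genes most like CDH1, CDH2 and CDH5 by Pearson's r, and LINC01133. Other genes were named after their values were seen. The p-values measure the spread between these libraries. Intervals cover counting error only. Alternatives were DESeq2 1.42.0, other scaling, filters, lengths and strand columns, a replicate block and leaving out each library. The same alternatives for genes outside the list were added after the data were seen.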

Additional observations from a re-analysis of the deposited data

Results flagged for a closer look

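Counts on the strand opposite to CDH3 were outside the comparisons. These counts were 12, 10 and 12 in control and 17, 14 and 12 in knockdown libraries, with means of 0.361 ± 0.0201 and 0.429 ± 0.0144 CPM (SD, n = 3). They were flagged because each knockdown library lay above each control library, although they made up 1.81% of the counts on both strands of the gene. Groups that do not overlap, in either direction, were common, at 57.3% of all tested genes. The antisense gene CDH3-AS1 shares 537 of the 6392 exon bases of CDH3.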

How the results depend on the processing

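Of the 8 tested members, 6 kept their direction and their side of the cutoffs under every alternative. CDH11 lost its call with library size alone (-0.55) and without control replicate 2 (-0.52). The log2 fold change of CDH13 turned to 0.041 with library size alone, where those of CDH12 (0.0044), JUP (0.011) and CTNND1 (0.0030) turned as well, and with 1 library left out it ran from -0.049 to 0.023 for CDH13 and from -0.098 to 0.0050 for CDH12. With 1 library left out, CDH1 lay between -2.17 and -1.91, CDH2 between -1.19 and -1.12 and CDH5 between 1.38 and 1.54. The total in knockdown cells was 61.3% of control with library size alone and 54.7% with the longest transcript, and 57.4% to 59.8% with 1 library left out. The share of CDH2 was 58.0% in control and 44.5% in knockdown cells per coding length and 69.9% and 57.0% per longest transcript, and 60.7% to 61.7% and 46.2% to 46.9% with 1 library left out.

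Among other named genes, PCDH10 lost its call without control replicate 3 (0.54), CDH18 without control replicate 1 or 2 or knockdown replicate 1 or 2 (-0.91 to -0.64), RET without control replicate 3 or knockdown replicate 1 or 2 (-0.78 to -0.76), DCHS1 without control replicate 2 or knockdown replicate 1 or 2 (-0.55 to -0.47), KRT7 without control replicate 1 or knockdown replicate 2 or 3 (-0.58 to -0.55), CDHR4 with 5 of the 6 libraries left out in turn (0.56 to 0.85) and DOCK11 without knockdown replicate 2 (-0.58), while ARVCF was called without control replicate 1 (0.74) or knockdown replicate 2 (0.67), and also with library size alone (0.64) and with a replicate block (0.59). The cause was not tested.

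Called genes numbered 1462 with DESeq2 and 1641 to 1815 with 1 library left out. Library size alone shifted the median log2 fold change to 0.065 and the share called higher from 45.2% to 55.9%. Same-numbered libraries showed no visible shared deviation from their group means, with correlations of -0.015, 0.0049 and 0.057, against -0.066 to 0.071 for libraries of different number. These values cannot show whether libraries of the same number were prepared together. With a replicate block 1747 genes were called, with CDH1 at -2.02, CDH2 at -1.16 and CDH5 at 1.44.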
